A study of Homo sapiens with 24 samples.

Results

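The genes described here are 10 markers and regulators of the epithelial and mesenchymal states of a cell, chosen by name and read from 4 RNA-seq count tables of the esophageal adenocarcinoma line OE33. They are CDH1, CDH2, EPCAM, ESRP1, GRHL2, OVOL2, ZEB1, SNAI2, VIM and FN1, and each was found as 1 of the 61860 Ensembl identifiers that every table lists. The question was whether their mRNA levels moved with diet, with TRIM15, or with the loss of YY2 or FOXRED1, each against its own control, and what their levels were in the 4 control groups. All 24 libraries came from OE33, with 3 libraries in each of 8 groups. In the first experiment OE33 cells were grown under the skin of male BALB/c-nu nude mice, bought at 4 weeks of age and kept on high-fat feed (HFD) or standard feed (ND, the normal diet) for 8 weeks before injection and until the tumors were taken 3 weeks later, and the HFD mice had been chosen for their body weight. In the second, cultured cells were transfected for 48 h with a plasmid for HA-tagged TRIM15 (HA-TRIM15) or the empty vector (EV). In the other two, cells were transfected for 72 h with a short hairpin RNA (shRNA) against YY2 or FOXRED1, or with shControl. Which of the shRNA sequences was sequenced is not stated, nude mice keep innate immune cells and stroma, and OE33 is a single cell line.

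Epithelial cells hold together through junctions built on E-cadherin, the product of CDH1, and carry the adhesion molecule EPCAM on their surface. In an epithelial-mesenchymal transition the zinc-finger repressors ZEB1 and SNAI2 (Slug) bind E-box sequences and lower epithelial genes, while vimentin (VIM), fibronectin (FN1) and N-cadherin (CDH2) go up. GRHL2, OVOL2 and the splicing factor ESRP1 hold the epithelial state, and GRHL2 and OVOL2 are known repressors of ZEB1. Many carcinoma cells hold a mixture of both programs.

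RefSeq promoter windows (GRCh38.p14) were matched by symbol for 4 of the 10 genes, namely FN1, VIM, ZEB1 and CDH2. The 250 bases before each start were searched on both strands for the E-box CAGGTG, which reads from the opposite strand as CACCTG, for the grainyhead motif AACCGGTT, and for the cAMP response element TGACGTCA. These motifs did not overlap each other in the windows below. The windows of FN1, which moved in all 4 experiments, and of the low genes ZEB1 and VIM are shown, with motif matches in capitals and with bases inside the GENCODE 29 gene left out.
FN1 (minus strand, chr2:215436173-215436318): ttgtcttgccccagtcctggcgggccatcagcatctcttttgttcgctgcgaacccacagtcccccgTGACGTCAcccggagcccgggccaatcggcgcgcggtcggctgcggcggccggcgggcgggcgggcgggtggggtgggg
ZEB1 (plus strand, chr10:31318167-31318416): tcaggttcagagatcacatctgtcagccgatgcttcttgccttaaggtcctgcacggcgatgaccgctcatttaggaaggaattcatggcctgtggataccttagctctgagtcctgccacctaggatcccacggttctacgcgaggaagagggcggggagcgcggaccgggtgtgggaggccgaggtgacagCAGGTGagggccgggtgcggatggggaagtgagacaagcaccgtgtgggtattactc
VIM (plus strand, chr10:17227991-17228240): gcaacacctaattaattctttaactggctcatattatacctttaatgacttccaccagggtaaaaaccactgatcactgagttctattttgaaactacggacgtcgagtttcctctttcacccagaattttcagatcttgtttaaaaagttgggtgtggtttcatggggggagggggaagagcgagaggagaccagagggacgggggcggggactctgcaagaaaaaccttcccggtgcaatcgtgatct
The FN1 window held 1 cAMP response element, a sequence found in 1.65% of the 35116 windows of that length. An E-box was found in 2 of the 7 windows of ZEB1 and in neither FN1, VIM nor CDH2, against 17.5% of all windows. The grainyhead motif was in no window of these genes and in 0.117% of all windows. A match is a description of letters and not of binding.

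Library totals ran from 14299807 to 45994561 counts, with a median of 18486548. The targeted genes followed their labels. TRIM15 had 111, 130 and 181 counts in HA-TRIM15 and 0 in each EV library, YY2 had 11 to 12 counts against 40 to 46, and FOXRED1 had 129 to 207 counts against 254 to 322. The third shFOXRED1 library stood apart, since its counts differed from those of its group by a chi-square per gene of 6.9 and 7.94, against 1.47 to 4.98 in the 22 other pairs within groups. Of 9 columnar epithelial markers KRT19 was the highest, at group means of 6116 to 10033 CPM (counts scaled to library size), while HNF4A was at 0.502 to 1.45 CPM and KRT20 at 0 counts in every library. The sum of 10 fibroblast markers was 10.9 to 44.3 CPM in all libraries and was almost wholly COL1A1, while COL1A2, COL3A1 and DCN did not exceed 24, 10 and 3 counts. Of 8 leukocyte markers PTPRC (CD45) did not exceed 3 counts in any library, while ITGAM had 95 to 556 and CD14 23 to 231. Of 8 endothelial markers PECAM1 did not exceed 6 counts, while EGFL7 had 318 to 2118, and of 7 pericyte and smooth muscle markers MYH11 did not exceed 1, while CSPG4 had 43 to 285.

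FN1, SNAI2 and GRHL2 moved in all 4 experiments, FN1 and SNAI2 always together and GRHL2 always the other way. Of all genes tested, 49.5%, 22.1%, 75% and 36.6% were called in HFD, HA-TRIM15, shYY2 and shFOXRED1. The share of all genes called in all 4, or with such a pattern of directions, was not computed. FN1 encodes the matrix glycoprotein fibronectin and lies at chr2:215360440-215436172 in the GENCODE 29 annotation (GRCh38). It was at 1912, 1796 and 1856 CPM in HFD tumors and at 1443, 1501 and 1419 CPM in ND tumors. It was at 2067, 2016 and 2107 CPM with HA-TRIM15 and at 1905, 1858 and 1894 CPM with EV. Treated and control libraries did not overlap in either experiment, and all treated libraries were the higher ones. Under shYY2 FN1 was at 1631, 1638 and 1579 CPM against 1971, 1963 and 1886 CPM, and under shFOXRED1 at 1141, 1155 and 1183 CPM against 1748, 1727 and 1742 CPM. Here every treated library lay below every control. By edgeR's quasi-likelihood test the log2 fold change was 0.35 ± 0.03 (SE, adjusted p = 3.43e-07) in HFD and 0.13 ± 0.03 (adjusted p = 0.00271) with HA-TRIM15. It was -0.26 ± 0.03 (adjusted p = 1.62e-07) with shYY2 and -0.58 ± 0.04 (adjusted p = 4.82e-09) with shFOXRED1, the last of these a fall to 0.667 of the control level. Adjusted p-values here and below were corrected by Benjamini-Hochberg for every gene in the fit, and 0.05 was the threshold.

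SNAI2, the repressor Slug, lies on chromosome 8 and was measured at 7 to 28 CPM. It had 19.9, 21.3 and 19 CPM in HFD tumors against 16.7, 16.2 and 16.4 CPM in ND tumors, and 22.6, 24.5 and 27.9 CPM with HA-TRIM15 against 16.9, 16.5 and 16.3 CPM with EV. It rose in both by edgeR, by a log2 fold change of 0.28 ± 0.06 (SE, adjusted p = 0.00166) in HFD and of 0.59 ± 0.08 (adjusted p = 9.49e-05) with HA-TRIM15. With shYY2 the values were 16.8, 16.6 and 17.9 CPM against 24.4, 24.9 and 23.6 CPM, a log2 fold change of -0.50 ± 0.06 (edgeR adjusted p = 2.21e-06). With shFOXRED1 they were 7.58, 7.18 and 7.71 CPM against 10.4, 11.1 and 9.09 CPM, a log2 fold change of -0.45 ± 0.13 (edgeR adjusted p = 0.0121). No treated library overlapped its controls in any of the 4 experiments. The shFOXRED1 call was lost without the second shControl library (log2 fold change -0.39, adjusted p = 0.067), and over the 12 alternatives tried its adjusted p ran from 0.00845 to 0.067.

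GRHL2, the grainyhead-like factor that keeps epithelial genes open, moved against both. It was at 61.4, 57.2 and 59.4 CPM in HFD tumors against 69.4, 72.3 and 70.1 CPM in ND tumors, and at 58.9, 61.5 and 59.6 CPM with HA-TRIM15 against 68.6, 66.6 and 64.5 CPM with EV. It was at 82.9, 82.3 and 82.0 CPM with shYY2 against 73.5, 69.4 and 67.5 CPM, and at 93.3, 95.1 and 88.3 CPM with shFOXRED1 against 73.7, 71.5 and 72.9 CPM. So the treated libraries were all below the controls in the first 2 experiments and all above them in the other two. The log2 fold changes by edgeR were -0.25 ± 0.04 (SE, adjusted p = 7.78e-05) in HFD and -0.15 ± 0.04 (adjusted p = 0.0194) with HA-TRIM15. They were 0.23 ± 0.04 (adjusted p = 4.19e-05) with shYY2 and 0.34 ± 0.06 (adjusted p = 0.000248) with shFOXRED1. The HA-TRIM15 call was lost without the first EV library (log2 fold change -0.13, adjusted p = 0.0944) or the second (-0.15, adjusted p = 0.068), and over 12 alternatives its adjusted p ran from 0.00671 to 0.0944. The 4 experiments share no libraries. The plot of library values against FN1 draws these same values again and is not separate support.

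CDH1, which encodes E-cadherin (chr16:68737225-68835548), did not follow this order. It was at 502, 497 and 507 CPM in HFD tumors and at 627, 614 and 626 CPM in ND tumors, and with HA-TRIM15 at 660, 682 and 674 CPM against 586, 566 and 567 CPM with EV. The gene thus fell in HFD tumors (log2 fold change -0.31 ± 0.03 SE, edgeR adjusted p = 5.84e-07) and rose with HA-TRIM15 (0.23 ± 0.03, edgeR adjusted p = 6.02e-05). It fell with shYY2 as well, at 557, 571 and 571 CPM against 667, 669 and 662 CPM (log2 fold change -0.23 ± 0.03, edgeR adjusted p = 4.85e-07). With shFOXRED1 it was at 725, 729 and 748 CPM against 700.3, 706 and 697 CPM, and although the groups were apart the log2 fold change of 0.07 ± 0.04 did not pass the test (edgeR adjusted p = 0.247). That last value passed when total counts replaced TMM scaling (0.12, adjusted p = 0.0326), and over 12 alternatives its adjusted p ran from 0.0326 to 0.521.

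The reads of FN1 per read of CDH1 in the same library do not depend on any scaling. In HFD tumors the ratio was 3.81, 3.62 and 3.66 against 2.3, 2.44 and 2.27 in ND tumors. It was 3.13, 2.95 and 3.13 with HA-TRIM15 against 3.25, 3.28 and 3.34 with EV, so here both genes rose and the ratio was lower in every treated library. With shFOXRED1 it was 1.58, 1.59 and 1.58 against 2.5, 2.45 and 2.5. With shYY2, where both genes fell, it was 2.93, 2.87 and 2.77 against 2.96, 2.93 and 2.85, and the groups overlapped. With 3 libraries against 3, an exact permutation test of such a ratio cannot give a two-sided p below 0.1.

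EPCAM, the other epithelial surface gene (chr2:47345158-47387601), passed the edgeR test with TMM scaling only where YY2 was reduced among the 4 experiments. It was at 670.2, 677 and 690.2 CPM with shYY2 against 524, 504 and 525 CPM, a log2 fold change of 0.39 ± 0.03 (SE, edgeR adjusted p = 2.23e-09). In HFD tumors it was at 591, 590.1 and 597 CPM against 597, 575 and 593 CPM, and the groups overlapped (log2 fold change 0.01 ± 0.03, edgeR adjusted p = 0.797). With total counts in place of TMM this value turned to -0.10 and passed the test (adjusted p = 0.0166), and that scaling moved the median of all genes from -0.01 to -0.12. With HA-TRIM15 the groups overlapped and the log2 fold change was 0.06 ± 0.04 (edgeR adjusted p = 0.254). With shFOXRED1 EPCAM was at 579.6, 579.8 and 574 CPM against 600.2, 597.8 and 617.2 CPM. Every treated library there was below every control, but the log2 fold change of -0.07 ± 0.04 did not pass (edgeR adjusted p = 0.25). CDH1 and EPCAM therefore moved in opposite directions with shYY2, where EPCAM reads per CDH1 read were between 1.19 and 1.21 against 0.753 to 0.793 in the controls.

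ESRP1, an RNA-binding protein that sets epithelial splice forms, rose in 3 experiments. It was at 205, 206 and 200.1 CPM in HFD tumors against 186, 181 and 177 CPM (log2 fold change 0.17 ± 0.03 SE, edgeR adjusted p = 0.000794). It was at 187, 192 and 190 CPM with HA-TRIM15 against 173, 168 and 167 CPM (0.16 ± 0.03, edgeR adjusted p = 0.00261), and at 239, 242 and 237 CPM with shYY2 against 200, 207 and 200 CPM (0.24 ± 0.03, edgeR adjusted p = 1.23e-06). These groups did not overlap. In the shFOXRED1 libraries it was at 165, 173 and 194 CPM against 187, 196 and 188 CPM, with overlap (-0.10 ± 0.06, edgeR adjusted p = 0.202). The high value there was the third shFOXRED1 library, and without it the log2 fold change was -0.17 (adjusted p = 0.00262, with a range of 0.00262 to 0.604 over 12 alternatives). The HFD call was lost with total counts (0.06, adjusted p = 0.178, the highest of 12 alternatives, the lowest being 6.02e-05).

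OVOL2 (chr20:17956979-18059188), a zinc-finger repressor of mesenchymal genes, was a low gene with 41 to 193 counts per library. With shYY2 it was at 8.57, 8.56 and 8.42 CPM against 4.22, 4.89 and 4.08 CPM, so every treated library was far above every control, at 1.94 times the control level (log2 fold change 0.96 ± 0.11 SE, edgeR adjusted p = 1.08e-06). The log2 fold change was -0.06 ± 0.12 in HFD tumors (edgeR adjusted p = 0.76), -0.30 ± 0.16 with HA-TRIM15 (0.197) and 0.04 ± 0.21 with shFOXRED1 (0.89), and in these the groups overlapped. The HA-TRIM15 value passed without the first HA-TRIM15 library (-0.50, adjusted p = 0.0262, with a range of 0.0262 to 0.581 over 12 alternatives). OVOL2 shares 59 exon bases with SNX5 on the same strand.

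ZEB1 (chr10:31318495-31529814), the main repressor of E-cadherin in many carcinomas, was detected in all libraries at only 41 to 138 counts. With shFOXRED1 it was at 4.98, 5.72 and 7.03 CPM against 3.95, 3.91 and 2.78 CPM, 1.65 times the control level (log2 fold change 0.72 ± 0.19 SE, edgeR adjusted p = 0.00733). Its rise went with a fall of SNAI2 in the same libraries. With shYY2 it was at 2.55, 2.57 and 3.35 CPM against 3.45, 3.77 and 3.88 CPM (-0.38 ± 0.15, edgeR adjusted p = 0.0345). That call was lost in 6 of 12 alternatives, among them the removal of shYY2 library 1 or 2 (adjusted p = 0.121 and 0.115) or of shControl library 2 or 3 (0.0649 and 0.0822), and the adjusted p ran from 0.0113 to 0.158. In HFD tumors ZEB1 was at 3.77, 3.55 and 3.54 CPM against 3.33, 2.88 and 3.21 CPM in ND tumors. Every HFD library was above every ND library, but the change did not pass (0.22 ± 0.12, edgeR adjusted p = 0.156). With HA-TRIM15 the groups overlapped and there was no call (0.07 ± 0.13, edgeR adjusted p = 0.796). The antisense gene ZEB1-AS1, which shares 366 exon bases with ZEB1 on the other strand, rose in HFD tumors (log2 fold change 0.48 ± 0.12, edgeR adjusted p = 0.00391) and with shYY2 (0.73 ± 0.12, edgeR adjusted p = 3.86e-05), so under shYY2 it went the other way from ZEB1. Whether counting used the strand is not settled, so reads in the shared bases cannot be assigned with certainty.

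VIM (chr10:17228259-17237593), the intermediate filament of mesenchymal cells, had no more than 78 counts in any library. It had 21, 17 and 51 counts in HFD tumors, or 0.92, 0.927 and 1.34 CPM, against 11, 30 and 9 counts in ND tumors, or 0.412, 0.627 and 0.418 CPM. It rose there to 2.14 times the control level (log2 fold change 1.10 ± 0.26 SE, edgeR adjusted p = 0.0023), the largest fold of the 9 genes tested in that experiment and one that remained called in 11 alternatives. With shYY2 it was at 0.911, 0.718 and 1.08 CPM against 1.81, 1.0 and 1.41 CPM (-0.63 ± 0.27, edgeR adjusted p = 0.0455) and the groups overlapped. That call was lost in 6 of 12 alternatives, including the removal of shYY2 library 1 or 2 (adjusted p = 0.0924 and 0.155) or shControl library 1 or 3 (0.21 and 0.0744), and the adjusted p ran from 0.0137 to 0.21. With HA-TRIM15 it had 26, 32 and 35 counts against 55, 47 and 78 (-0.51 ± 0.21, edgeR adjusted p = 0.107). In the FOXRED1 experiment VIM had 0 counts in each shFOXRED1 library and 0, 0 and 2 in the controls, so no fold is given. VIM-AS1, with 641 shared exon bases on the other strand, had 0 counts in the shFOXRED1 libraries and 0, 2 and 2 in their controls, against 31, 38 and 37 in EV. In the tumors it had 10, 8 and 20 counts in HFD and 18, 23 and 10 in ND, a size near that of the VIM counts. AL133415.1 shares 619 exon bases with VIM, also on the other strand. Reads of VIM in shared bases cannot be assigned with certainty either, in HFD or elsewhere. In bulk RNA a change in the number of cells and a change of RNA per cell cannot be told apart, and this holds for every gene here. In the tumors the summed markers of fibroblasts were lower in HFD, at 23.9 to 27.3 CPM against 30.6 to 33.8 CPM in ND, with 2 of 10 genes at 0 in each group. Those of pericytes and smooth muscle were higher, at 13.8 to 14.6 CPM against 12.3 to 13.7 CPM. This rise was carried by CSPG4, at a mean of 6.68 CPM against 4.95 CPM, while ACTA2, TAGLN and RGS5 had lower means in HFD. Those of endothelium were also higher, at 46.4 to 52.5 CPM against 39.7 to 44.8 CPM, a sum held mostly by EGFL7 in both groups. Those of macrophages and leukocytes were at 14.8 CPM in HFD and 15.8 to 17.2 CPM in ND. In that sum ITGAM was lower in HFD (mean 9.04 against 11.2 CPM) and CD14 higher (5.27 against 4.64 CPM). Cultured cells reached sums as high. The FOXRED1 controls had 24.5 to 26.4 CPM for leukocyte and 44.8 to 55.5 CPM for endothelial markers. With shYY2 the pericyte and smooth muscle sum was 26.3 to 28.7 CPM. These counts are of human genes, while the host cells of the tumors were mouse cells, and the treatment of mouse reads is not given. Which cells gave these sums was not tested. The part of these cell types in the VIM values was not tested.

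CDH2, the N-cadherin gene (chr18:27950966-28177446), was at or near 0. It had 10 counts over all 24 libraries, in 5 libraries, and 0 in every HFD, ND, shYY2, shFOXRED1 and FOXRED1-control library. A count of 0 allows up to 3 counts in a library, which is 0.0652 to 0.21 CPM depending on depth. CDH2 was left out by the filter on low counts in every experiment.

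Counted over each experiment, 6 of the 9 genes tested passed in HFD tumors, 4 higher and 2 lower, where 49.5% of all 17012 genes tested passed (25.6% higher, 23.9% lower). With HA-TRIM15 5 of 9 passed, 4 higher and 1 lower, against 22.1% of all genes (12.5% higher, 9.53% lower), but only SNAI2 of these changed by 1.2 times or more. With shYY2 all 9 tested passed, 4 higher and 5 lower, against 75% of all genes (36.8% higher, 38.1% lower), so a passing gene is the rule in that experiment. With shFOXRED1 4 of 8 passed, 2 in each direction, against 36.6% of all genes (16.8% higher, 19.7% lower). Treated and control libraries did not overlap for 7 of 9 genes in HFD, 5 of 9 with HA-TRIM15, 8 of 9 with shYY2 and 6 of 8 with shFOXRED1. The same held for 56.2%, 37.7%, 76.3% and 46.7% of all genes. The median log2 fold change of the members tested was 0.17, 0.07, -0.23 and -0.01 in the same order, beside medians of all genes of -0.01, -0.01, -0.01 and 0.01. In no experiment did all epithelial genes that passed move one way and all mesenchymal genes that passed the other.

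**Figure D1:**
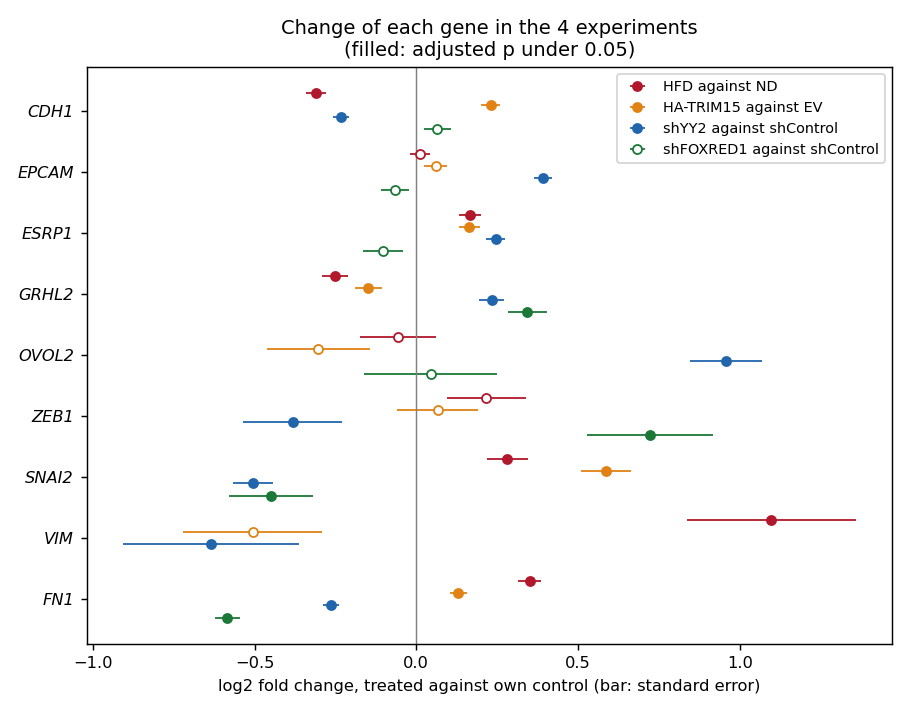
Log2 fold change of 9 genes (rows) against the own control, 1 color per experiment, with bars for the standard error and filled points where the adjusted p passed 0.05. FN1 and SNAI2 lie right of 0 in HFD and HA-TRIM15 and left of 0 in both knockdowns, GRHL2 is the reverse, and CDH1, ZEB1 and VIM differ between experiments that agree in FN1.

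The difference between 2 effects was tested as an interaction for 2 pairs of experiments. The shYY2 effect differed from the shFOXRED1 effect for 6 of the 9 genes tested, against 54.4% of all genes. The difference (shYY2 minus shFOXRED1, log2) was -1.10 ± 0.26 SE for ZEB1 (edgeR adjusted p = 0.000921), 0.92 ± 0.23 for OVOL2 (0.00183) and 0.46 ± 0.05 for EPCAM (5.53e-08). It was 0.35 ± 0.07 for ESRP1 (0.000167), 0.32 ± 0.05 for FN1 (3.67e-06) and -0.30 ± 0.05 for CDH1 (1.12e-05). For SNAI2 (-0.06 ± 0.13, edgeR adjusted p = 0.745) and GRHL2 (-0.11 ± 0.07, edgeR adjusted p = 0.174) no difference passed, which does not show that the effects were equal, and the GRHL2 value passed without the third shFOXRED1 library (-0.15, adjusted p = 0.0446, range 0.0446 to 0.786). FN1 therefore fell further with shFOXRED1, and ZEB1 went in opposite directions.

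The HFD effect differed from the HA-TRIM15 effect for 4 of 9 genes, against 35.2% of all genes. The difference (HFD minus HA-TRIM15, log2) was -0.51 ± 0.04 SE for CDH1 (edgeR adjusted p = 6.98e-09), 1.63 ± 0.35 for VIM (0.00109), 0.25 ± 0.04 for FN1 (0.000129) and -0.28 ± 0.10 for SNAI2 (0.0405). The SNAI2 difference was lost in 11 of 18 alternatives, 9 of them the removal of 1 library, which left adjusted p at 0.0542 to 0.137. The HFD and HA-TRIM15 experiments differ also in growth in mice or culture and in the time of treatment.

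Levels in the control groups were compared between genes in TPM (transcript levels corrected for gene length and library size, from the length of the principal GENCODE 29 transcript). In every control group the order from the top was EPCAM, FN1, CDH1, ESRP1, GRHL2, SNAI2 and OVOL2. EPCAM was at 933 ± 15.7, 703 ± 27.7, 809 ± 15.8 and 995 ± 24.5 TPM (SD, n = 3) in ND, EV, the YY2 controls and the FOXRED1 controls. FN1 followed at 504 ± 17.1, 637 ± 8.99, 662 ± 18.7 and 624 ± 8.42 TPM, and CDH1 at 348 ± 2.82, 313 ± 6.41, 367 ± 3.77 and 407 ± 0.463 TPM. ESRP1 had group means of 119 to 143 TPM, GRHL2 33.9 to 39.3 TPM, SNAI2 11.9 to 27.0 TPM, OVOL2 7.02 to 7.67 TPM and ZEB1 1.58 to 1.85 TPM. Neighbours in this order did not overlap within any group down to OVOL2. ZEB1 and VIM were below them, and VIM was above ZEB1 in EV, below it in ND and the FOXRED1 controls, and overlapping it in the YY2 controls. With the total exon length of every gene in place of the principal transcript, FN1 means were 378 to 498 TPM. On these lengths FN1 was below CDH1 in ND (CDH1 at 453 TPM) and in the FOXRED1 controls (CDH1 at 520.0 TPM).

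VIM and SNAI2 differed most between control groups. On 1 scale for the 12 control libraries, VIM was at 2.15 to 3.04 CPM in EV, 1.0 to 1.82 CPM in the YY2 controls, 0.401 to 0.608 CPM in ND tumors and 0 to 0.136 CPM in the FOXRED1 controls, and no range overlapped another. SNAI2 was at 23.7 to 25.0 CPM in the YY2 controls, 17.0 to 17.6 CPM in EV, 15.7 to 16.3 CPM in ND and 9.1 to 11.2 CPM in the FOXRED1 controls, again with no overlap. For SNAI2 the 2 shControl groups were thus further apart than each knockdown moved it. FN1 was the 1 member whose ND libraries lay outside all 9 culture controls, at 1378 to 1455 CPM against a lowest culture value of 1743 CPM, where 27.3% of the 17135 genes compared had ND apart. Growth in mice, experiment and library preparation cannot be told apart here, and no test was made.

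Other genes of the same programs gave a fuller picture of each experiment. Of 23 genes of cell adhesion and junctions, 8 rose and 5 fell in HFD tumors, where 25.6% of all genes rose and 23.9% fell. CLDN1, a tight junction claudin, rose by 0.58 ± 0.04 (log2 fold change ± SE, edgeR adjusted p = 2.6e-09) and CGN (cingulin) fell by 0.34 on the same scale (adjusted p = 3.49e-07). With HA-TRIM15 11 rose and 1 fell, beside 12.5% and 9.53% of all genes, among them the desmosomal DSC2 at 0.25 ± 0.04 (adjusted p = 0.000355), the fall being PKP3 at -0.20 ± 0.05 (adjusted p = 0.00832). With shYY2 13 rose and 6 fell, beside 36.8% and 38.1% of all genes, led by the tight junction scaffold TJP3, from 23.3 ± 0.66 to 134 ± 2.66 CPM (SD, n = 3, log2 fold change 2.52 ± 0.04, edgeR adjusted p = 9.91e-17), with CLDN3 at 1.09 ± 0.04, while TJP1 was at -0.54 ± 0.10. With shFOXRED1 7 rose and 4 fell, beside 16.8% and 19.7% of all genes, with TJP3 again the largest rise at 0.76 ± 0.07 (edgeR adjusted p = 1.19e-07) and the desmoplakin gene DSP the largest fall at -0.66 ± 0.05 (edgeR adjusted p = 2.31e-08). The list medians were -0.02, 0.13, 0.14 and 0.08 in the order HFD, HA-TRIM15, shYY2 and shFOXRED1.

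With shYY2, where 36.8% of all genes rose and 75% passed in either direction, of 13 genes of apical-basal polarity and epithelial trafficking 11 rose and the others did not pass, with PATJ at a log2 fold change of 0.84 ± 0.03 and LLGL2 at 0.83 ± 0.03 (edgeR adjusted p = 3.11e-12 and 5.13e-13). All 5 genes of the surface protease system rose, among them the protease PRSS8 at 1.27 ± 0.04 and its inhibitor SPINT1 at 1.19 ± 0.03 (edgeR adjusted p = 4.57e-14 and 3.43e-14). In HFD tumors the polarity list had 4 rises, with the others not passing, beside 25.6% of all genes higher, led by MAL2 at 0.79 ± 0.04 (edgeR adjusted p = 3.13e-11), and with HA-TRIM15 it had 7 rises and 2 falls, beside 12.5% and 9.53% of all genes, led by PARD6B at 0.72 ± 0.05 (edgeR adjusted p = 1.05e-07). The protease list had 2 rises and 1 fall in HFD tumors and 1 of each with HA-TRIM15. With shFOXRED1, where 16.8% of all genes rose and 19.7% fell, the polarity list had 3 higher and 4 lower, and in the protease list 3 of 5 rose, led by PRSS8 at 0.85 ± 0.06 (edgeR adjusted p = 1.19e-08). The list medians with shYY2 were 0.33 and 1.00, beside -0.01 for all genes.

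Of 12 further epithelial regulators 5 rose and 6 fell in HFD tumors, beside 49.5% of all genes called, with the ETS factor EHF at 0.70 ± 0.04 and the grainyhead factor GRHL3 at -0.38 ± 0.05 (log2 fold change ± SE, edgeR adjusted p = 5.25e-10 and 1.03e-05). With HA-TRIM15 6 rose and 1 fell, beside 22.1% of all genes called, led by KLF4 at 0.62 ± 0.03 (edgeR adjusted p = 1.27e-08). With shYY2 9 rose and 1 fell, beside 75% of all genes called, led by TFAP2A at 1.59 ± 0.05 and ELF3 at 1.30 ± 0.03, with EHF at -0.27 ± 0.03 as the fall. With shFOXRED1 5 rose and 2 fell, beside 36.6% of all genes called, with ELF3 at 0.51 ± 0.05 and EHF at -0.48 ± 0.05 (edgeR adjusted p = 8.99e-07 and 6.6e-07).

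Of 11 other transcription factors of the transition, 3 or 4 had enough counts to be tested. In HFD tumors 1 rose and 1 fell, with HA-TRIM15 1 rose, with shYY2 3 rose and 1 fell, and with shFOXRED1 1 fell. Of all genes, 49.5%, 22.1%, 75% and 36.6% were called in the same order. TCF3 was the fall in HFD tumors (log2 fold change -0.19 ± 0.04 SE, edgeR adjusted p = 0.00134). With shYY2 TCF3 rose (0.15 ± 0.04, edgeR adjusted p = 0.00114). SNAI1 (Snail) was low, and it rose from 2.86 ± 0.535 to 5.24 ± 0.507 CPM in HFD tumors and from 2.72 ± 0.347 to 4.97 ± 0.468 CPM with HA-TRIM15 (SD, n = 3 each). These are log2 fold changes of 0.84 ± 0.14 and 0.88 ± 0.14 (edgeR adjusted p = 8.18e-05 and 0.000481). SNAI1 thus rose in both experiments in which SNAI2 rose, and it rose also with shYY2 (0.46 ± 0.12, edgeR adjusted p = 0.00329), where SNAI2 fell. FOXC2 fell with shYY2 (-1.15 ± 0.09, edgeR adjusted p = 1.14e-08) and with shFOXRED1 (-0.53 ± 0.10, edgeR adjusted p = 0.000378).

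Of 22 genes of mesenchymal structure and matrix, 15 or 16 were tested. In HFD tumors 8 rose and 3 fell, beside 49.5% of all genes called, among them the integrin subunit ITGAV at 0.80 ± 0.04 (log2 fold change ± SE, edgeR adjusted p = 3.22e-11), with S100A4 the largest fall at -0.53 ± 0.06. With HA-TRIM15 1 rose (ITGAV, 0.17 ± 0.03) and 3 fell, beside 22.1% of all genes called, among them TGFBI at -0.23 ± 0.04 (edgeR adjusted p = 0.000392). With shYY2 7 rose and 6 fell, beside 75% of all genes called, with FBN1 (fibrillin) at 2.03 ± 0.16 and the tenascin gene TNC at -1.04 ± 0.04 (edgeR adjusted p = 1.07e-08 and 5.24e-12). With shFOXRED1 1 rose (ITGA5, 0.41 ± 0.07) and 7 fell, beside 36.6% of all genes called. The falls were led by MSN at -1.44 ± 0.25 and the receptor kinase AXL at -1.12 ± 0.08 (edgeR adjusted p = 0.000218 and 9.72e-09). MSN was a low gene, at 2.03 ± 0.811 against 5.60 ± 0.997 CPM, and AXL was at 21.7 ± 1.23 against 47.2 ± 1.92 CPM (SD, n = 3). The list medians were 0.06, -0.04, -0.04 and -0.40 in the same order, beside -0.01, -0.01, -0.01 and 0.01 for all genes. With shYY2 the fibroblast marker sum, nearly all COL1A1, was 42.4 to 44.3 CPM against 10.9 to 12.2 CPM. Both groups were cultured OE33 cells. COL1A1 was at 42.6 ± 1.04 against 10.6 ± 0.357 CPM (SD, n = 3). FAP had 3 to 8 counts with shYY2 against 7 to 16 in the controls, and PDGFRB had 2 to 7 against 0 to 2. COL1A2, COL3A1, DCN, LUM, PDGFRA, POSTN and THY1 did not exceed 2 counts in these libraries. The cause of the COL1A1 change was not tested.

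The genes whose pattern over the 24 libraries, with each experiment centred on its mean, was most like that of CDH1 were H4C8, FAM120AOS and GEM, with Pearson r of 0.944, 0.922 and 0.922 among 14511 genes. For ZEB1 they were ZSCAN9, ZNF274 and ZNF101 (0.894, 0.868 and 0.858), and for VIM they were MTR, L3HYPDH and GOPC (0.795, 0.78 and 0.77). The points share their library and their group, so these values describe mostly the pattern of group means.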

How the data were processed

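RNA-seq libraries of OE33 tumors or cells were sequenced by the authors (poly-A selected, paired-end reads), who deposited raw read counts per Ensembl gene, 1 table per experiment. The labels name the builds hg38 and mm10, but the aligner, the counter, strand use and the treatment of mouse reads are not given in the sources used here. Labels name a directional kit and the methods a non-directional one. Gene lengths came from GENCODE 29. Symbols came from a gene name reference, then from RefSeq, and from GENCODE 29 only where neither gave a name. Counts were scaled by TMM and tested in edgeR 4.0.16 (R 4.3.3) by the quasi-likelihood test within each experiment, after filterByExpr (minimum count 10, total 15), with p-values adjusted by Benjamini-Hochberg. The error of a log2 fold change is its size divided by the root of F. Labels do not say whether libraries are separate animals or cultures, so p-values measure the spread between libraries, which may be technical. Members and lists were chosen with earlier results of these data known. From each list the text could name up to 2 genes per direction and experiment, those with the largest fold change among called genes whose groups were apart and whose mean reached 1 CPM. One gene that this rule names is not reported here. Same-numbered libraries deviated together by correlations of -0.0275 to 0.097 over all genes tested. Over genes of at least 10 CPM, a check chosen after seeing the data, every shFOXRED1 pair exceeded 0.1 (0.126 to 0.41). In the other experiments the values ran from -0.079 to 0.206. Over all genes tested, the second shFOXRED1 library was most like the first control library. A pairing in the shFOXRED1 experiment is therefore not settled, and the block left its calls of members as they were. Alternatives used DESeq2 1.42.0, other scalings and filters, the block and the removal of each library.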

Additional observations from a re-analysis of the deposited data

How the results depend on the processing

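Of 53 gene-by-comparison results, 35 had the same direction and side of the threshold under every alternative tried, and 696 of 741 alternative values did so in all. Requiring a 1.2-fold change left 1 called member with HA-TRIM15. With the replicate number as a block 6, 5, 9 and 4 members were called in HFD, HA-TRIM15, shYY2 and shFOXRED1, and 6 and 3 in the 2 interaction tests, the SNAI2 difference between HFD and HA-TRIM15 being lost (adjusted p = 0.0515). It changed no other call. Total counts in place of TMM, chosen after seeing the data, turned EPCAM in HFD to -0.10 and the ESRP1 difference between HFD and HA-TRIM15 to -0.076. A minimum of 10 counts in every library turned EPCAM in HFD to -8.63e-05. Removal of 1 library gave log2 fold changes of -0.0023 to 0.026 for EPCAM and -0.12 to 0.019 for OVOL2 in HFD, and of -0.097 to 0.20 for OVOL2 with shFOXRED1. It gave differences of -0.053 to 0.0073 for EPCAM (HFD minus HA-TRIM15), and of -0.12 to 0.015 for SNAI2 and -0.64 to 2.69 for VIM (shYY2 minus shFOXRED1). All of these had not passed the test as reported, and the causes were not tested. Members with ND apart from the culture controls numbered 1 to 3 on removal of 1 library, 3 without the third FOXRED1-control library. With total counts the HFD split of calls over all genes went from 4354 higher and 4061 lower to 2806 and 6399. Low counts limit VIM, ZEB1, OVOL2 and CDH2.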
